A study of Neurospora crassa with 8 samples.

Results

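The response of Neurospora crassa to light was described gene by gene, by setting the sense transcripts of a library from dark-grown mycelia beside those of a library harvested after 60 min of light. All genes with at least 20 reads in either library were compared, in both directions, which were 7813 of the 9733 genes counted. Both libraries came from the wildtype strain 74-OR23-1VA, a haploid filamentous fungus grown as mycelia in liquid culture at 25°C. The cultures grew in light for 1 day and were moved to darkness for 24 h, and one was harvested directly while the other was first exposed to light for 60 min. Libraries of the same strain after 30 and 120 min of light, and libraries of wt, Δwc1 and Δwc2 grown in constant light for 48 h, were used only beside these results. Each condition has 1 library, and no source used here says how many cultures stand behind it. Hence no p-value was calculated, and the intervals given compare 2 libraries and cover counting error only.

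Neurospora senses blue light with the White Collar Complex, a transcription factor made of WC-1, which binds a flavin in its LOV domain, and its partner WC-2. In light the complex activates genes for carotenoid pigments, DNA repair, asexual spore formation (conidiation) and the circadian clock, among them frq, and it also activates vvd, whose product is a small LOV photoreceptor that binds the complex and dampens the response. Mycelia that return to light turn orange because carotenoids accumulate, and conidiation is promoted. The comparison of dark and 60 min asks which genes stand at the front of this response and which transcripts are less abundant in light.

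The dark library holds 9804779 reads on the sense strand of genes and the 60 min library holds 21422091. Levels are given as CPM, the count divided by this sum and multiplied by 1000000, and a floor of 3 reads corresponds to 0.306 CPM in the dark and 0.140 CPM at 60 min. The 60 min library stood apart from the other 3 strand-specific libraries. Of its reads, 87.9% were counted on the sense strand of genes, against 78.7% to 80.8% in the others. A further 9.03% were assigned to no gene on that strand (others 13.4% to 14.5%), which can include antisense reads of genes. Another 2.99% were not unique (others 5.58% to 6.70%). The ratios also differed with gene length. When the genes were split into 5 length classes of equal size, the median log2 ratio was -0.09 in the class of the shortest genes and -0.31 in that of the longest. The part of these differences in the results was not tested beyond the scalings and the length adjustment given in the closing section.

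The CPM of 408 genes was more than 2-fold higher at 60 min than in the dark (5.22% of the genes compared), and that of 486 genes was more than 2-fold lower (6.22%), while 6919 genes (88.6%) stayed within 2-fold. The exact 95% interval of the ratio also lay beyond 2-fold for 279 of the higher genes (3.57%) and 298 of the lower genes (3.81%). The 2 directions differed in size. Of the higher genes, 146 exceeded 4-fold, 68 exceeded 8-fold and 30 exceeded 16-fold, whereas 51 of the lower genes exceeded 4-fold, 8 exceeded 8-fold and 2 exceeded 16-fold. The single gene without a dark read, NCU08533, had 96 reads at 60 min, and the interval of its ratio begins at 11.7.

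The genes that were higher in light took 3.58% of the gene reads in darkness and 18.2% after 60 min of light. For the lower genes these shares were 10.5% and 4.06%. The median level of the higher genes was 23.3 CPM in the dark and 91.3 CPM at 60 min, and that of the lower genes was 47.8 and 18.3 CPM, while the median over all genes compared was 38.7 and 34.5 CPM. A few genes carried much of this gain, since the 10 genes with the largest gain in CPM took 0.611% of the reads in the dark and 6.72% at 60 min.

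CPM are shares of a library, so that a larger share for some genes leaves a smaller share for the others. How far this set the median of the ratios was not tested. The median log2 ratio over all genes compared was -0.18, with quartiles of -0.47 and 0.11, and TMM factors, which scale the libraries on the bulk of the genes, moved every log2 ratio up by 0.20, to a median of 0.01. Leaving out the 31 genes with the most reads from the sums moved the log2 ratios up by 0.045. Scaling to all lines of the sense files, with the reads counted for no gene, moved them up by 0.160. The split of the calls moved with the scaling. With TMM factors 514 genes were higher and 314 lower, so that 62.1% of the calls were higher, against 45.6% with the gene sums. Of the named genes past 2-fold, none of the 52 higher genes lost its call under any of the 5 other scalings, but 16 of the 52 lower genes did under at least 1. These are the genes close to 2-fold, and they are pointed out below. In turn, 3 of 120 named genes within 2-fold, wc-1, csp-2 and cat-2, became higher genes under at least 1 of them.

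**Figure D1:**
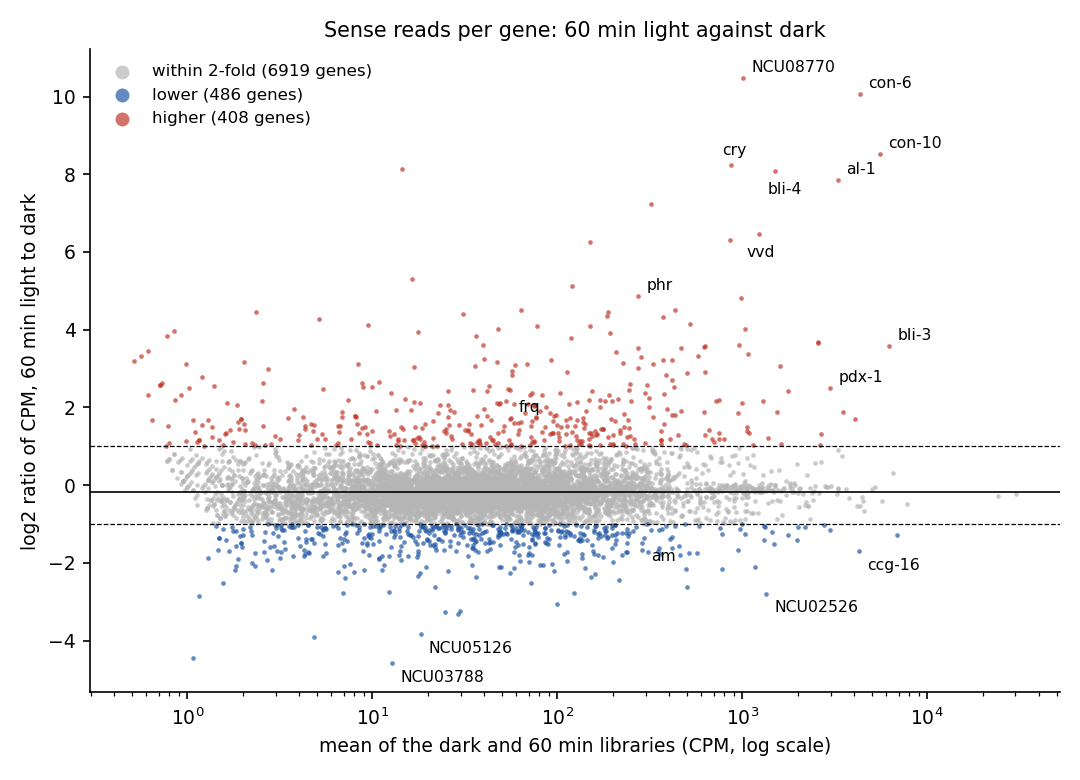
Each point is 1 gene with reads in both libraries. The x axis is the mean of its CPM in the dark and at 60 min on a log scale, and the y axis is the log2 ratio of CPM at 60 min to the dark, with dashed lines at 2-fold and a solid line at the median of -0.18. The 408 higher genes reach log2 ratios above 10 at high CPM, whereas the 486 lower genes end at -4.58 for NCU03788 among the named genes.

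Genes of conidiation led the higher genes. The gene con-6 had 79 reads in the dark and 184961 at 60 min, or 8.06 and 8634 CPM, a ratio of 1072 (95% interval 860 to 1354). The locus numbered next to it, NCU08770, had 14 and 43221 reads, the largest ratio among the named genes, 1413 (842 to 2585). The gene con-10 had 295 and 237534 reads, or 30.1 and 11088 CPM, a ratio of 369 (329 to 415). Thus 2 genes with few reads in the dark, con-6 and con-10, were among the 5 that took the most reads after 60 min.

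**Figure D2:**
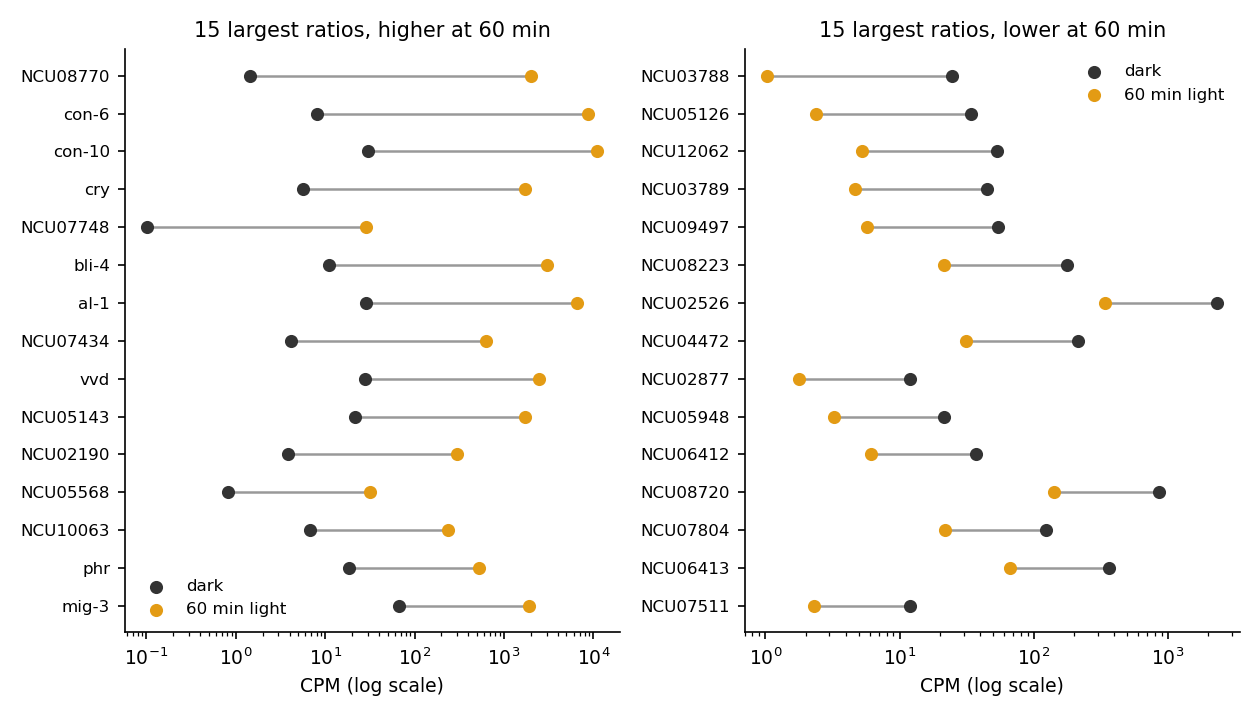
The 15 genes with the largest ratio in each direction chosen from genes whose interval lies beyond 2-fold and that reach 100 reads in the library with the higher level. Each line joins the CPM in the dark (black) and at 60 min (orange) on a log scale. The higher genes span ratios of 28.2 to 1413, and the lower genes span 5.22-fold to 23.9-fold.

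Of the 12 conidiation genes followed, 11 had enough reads. Of these, 4 were higher (36.4%, against 5.22% of all genes compared), none was lower, and the median log2 ratio was 0.41. Beside con-6 and con-10, these were con-8, with 553 CPM in the dark and 2981 at 60 min (log2 ratio 2.43), and rca-1, a relative of an Aspergillus regulator of conidiophore development, with 9.79 and 35.3 CPM (log2 ratio 1.85). The other regulators in the list stayed within 2-fold, although csp-2, at a ratio of 1.91, passed it under 4 of the 5 other scalings. The gene fl, which encodes the transcription factor that drives the conidiation program, was at 143 and 98.1 CPM, acon-3 had 26 and 49 reads, and csp-1, a repressor under clock and light control, was at 142 and 189 CPM. The hydrophobin gene eas, whose product coats conidia, was read at 2803 and 2424 CPM, with 27487 and 51919 reads. Transcripts of con-13 were near absent, with 0 and 3 reads. The sum over the compared members was 3820 CPM in the dark and 25655 CPM at 60 min. Of the 9 sexual development genes, 6 had fewer than 20 reads in both libraries, among them the mating type genes matA-1, matA-2 and matA-3 with at most 17 reads. Of the other 3, asd-1 had 4536 and 7320 reads and pre-1 had 43 and 68, both within 2-fold, and the only called member, poi-2, rests on 6 and 57 reads. Both lists thus held members that were well read in the mycelia and members at or near 0. The part that spores or aerial structures might have in the higher genes was not tested.

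Carotenoid synthesis was represented by 5 genes, of which 4 were higher (80%, against 5.22% of all genes compared) and none lower. Their median log2 ratio was 3.52. The gene al-1, which encodes phytoene desaturase, had 279 and 139701 reads (28.5 and 6521 CPM), a ratio of 229 (204 to 259). The gene al-2 for phytoene synthase and lycopene cyclase was already read in the dark, at 376 CPM, and reached 4782 CPM at 60 min, a ratio of 12.7. The torulene-cleaving oxygenase cao-2 was at 43.8 and 502 CPM, a ratio of 11.5 (10.4 to 12.7), and al-3, which encodes geranylgeranyl pyrophosphate synthase, was at 98.3 and 311 CPM, a ratio of 3.17 (2.96 to 3.39). The 4 genes thus differed widely in the size of the ratio. The gene ylo-1, for the aldehyde dehydrogenase at the end of the pathway, had 274 and 188 CPM, a log2 ratio of -0.54.

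Among the 7 photoreceptor genes, 2 were higher (28.6%, against 5.22% of all genes compared) and none was lower. The cryptochrome gene cry had 56 and 36994 reads, or 5.71 and 1727 CPM, a ratio of 302 (233 to 400). The gene vvd had 273 and 52377 reads, or 27.8 and 2445 CPM, a ratio of 87.8 (78.0 to 99.3). The genes of the White Collar Complex itself stayed within 2-fold, with 20.5 and 36.4 CPM for wc-1 (ratio 1.77, 1.52 to 2.08) and 123 and 65.6 CPM for wc-2 (ratio 0.534, 0.494 to 0.577). With median-of-ratios and TMM factors, wc-1 passed 2-fold, with a log2 ratio of 1.02 under TMM against 0.83 with the gene sums. The phytochrome genes phy-1 and phy-2 and the opsin gene nop-1 had log2 ratios of -0.97, -0.23 and 0.31. Of the 10 clock components, only frq was higher (10%, against 5.22% of all genes compared). It was at 25.9 and 86.0 CPM, a ratio of 3.32 (2.91 to 3.80). The median of the clock list was -0.19, close to the median of all genes. The frq partner frh, the casein kinase gene ck-1a and the F-box gene fwd-1 had log2 ratios of 0.31, -0.11 and -0.86.

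The blue light-induced genes bli-3 and bli-4 were both higher. The gene bli-4 had 109 and 64549 reads, a ratio of 271 (225 to 330). The gene bli-3 was already well read in the dark, with 964 CPM before and 11533 CPM after 60 min of light, a ratio of 12.0 (11.7 to 12.2). The clock-controlled genes, which were isolated for their daily rhythm, lay on both sides of the median of all genes. In the joint list of 10 genes compared, 20% were higher and 20% lower, against 5.22% and 6.22% of all genes compared. The gene ccg-14 was at 9787 and 3993 CPM and ccg-16 at 6522 and 2024 CPM, log2 ratios of -1.29 and -1.69. The other 6, ccg-1, ccg-6, ccg-8, ccg-9, ccg-13 and ccg-15, stayed between -0.54 and 0.40.

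DNA repair genes were described as a list of 42, of which 41 were compared, and most of them lay near the median of all genes. Their own median log2 ratio was -0.18, and 36 stayed within 2-fold. Of the list, 9.76% were higher and 2.44% lower, against 5.22% and 6.22% of all genes compared. The exceptions were led by genes that act on damage from ultraviolet light. The photolyase gene phr, whose product splits pyrimidine dimers with the energy of light, had 179 and 11376 reads, a ratio of 29.1 (25.1 to 33.9), and mus-18, which encodes an endonuclease that cuts at ultraviolet damage, had 53 and 2623 reads, a ratio of 22.7 (17.3 to 30.3). The gene csb, a homolog of the human gene that couples repair to transcription, had a ratio of 3.18 (2.74 to 3.69). The gene mus-40 was at 2.02, with an interval that begins at 1.66. The single lower gene was poli, for a translesion DNA polymerase, at 52.9 and 17.2 CPM.

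The transcription factors with a symbol were represented by 51 genes, of which 5 were higher and 4 lower (9.80% and 7.84%, against 5.22% and 6.22% of all genes compared). The higher genes were bek-1 (16 and 196 reads, log2 ratio 2.49), col-22 (2.06), rca-1, sub-1 (1.49) and sah-1 (1.35). Of these, sub-1 encodes a GATA factor that is itself a direct target of the White Collar Complex, and it was at 44.9 CPM in the dark and 126 CPM at 60 min. The lower genes were vad-5 (log2 ratio -2.27), tah-3 (-1.77), fsd-1 and nuc-1, the regulator of phosphorus acquisition (both -1.17). The calls of fsd-1 and nuc-1 were lost under 2 of the 5 other scalings.

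Of the 17 genes for vitamins and cofactors, the pair for pyridoxine (vitamin B6) synthesis was higher (11.8%, against 5.22% of all genes compared). The gene pdx-1 was at 903 and 5064 CPM, a ratio of 5.61 (5.49 to 5.73), and pdx-2, the locus numbered next to it, was at 109 and 517 CPM, a ratio of 4.74 (4.46 to 5.06). The gene nic-8 was lower, at 80.7 and 31.0 CPM, and the other 14 stayed within 2-fold, including pdx-3 and pdx-4, with log2 ratios of 0.13 and -0.47. Amino acid synthesis had 3 of 47 genes higher, aro-3 (log2 ratio 1.32), trp-3 (1.25) and arg-13 (1.18), none lower and a median of 0.25. The share of higher genes, 6.38%, was near the 5.22% of all genes compared. Among genes of the oxidative stress response, the catalase gene cat-4 was higher (107 and 1269 reads, a ratio of 5.43), cat-1 and cat-2 had ratios of 1.70 and 1.89, and cat-3 had a ratio of 0.998. The log2 ratios of these catalase genes thus spread over more than 2 units.

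The 15 lower genes with the largest ratios have no symbol in the annotation used. The gene NCU03788 had 241 and 22 reads, or 24.6 and 1.03 CPM, and was 23.9-fold lower (15.4 to 38.9). The next locus, NCU03789, had 440 and 100 reads and was 9.61-fold lower (7.72 to 12.1). The gene NCU05126 had 334 and 51 reads and was 14.3-fold lower (10.6 to 19.6). The counts behind these genes were low beside those of NCU02526, which had 22937 and 7242 reads (2339 and 338 CPM) and was 6.92-fold lower (6.74 to 7.11). The pair NCU06412 and NCU06413 was 6.12-fold and 5.44-fold lower.

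Among the genes past 2-fold, the largest losses in CPM were those of ccg-14, ccg-16, NCU05498, NCU02526, sod-2, NCU04314, NCU07287, NCU00829, NCU02884 and NCU01212. Their joint share of the reads was 3.89% in the dark and 1.48% at 60 min. The gene sod-2 encodes the mitochondrial superoxide dismutase. It was at 3705 and 1813 CPM, a ratio of 0.489 that all 5 other scalings placed above 0.5. The calls of NCU05498 and NCU07287 were lost under 3 and 4 of them.

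Several lists with lower members concern nutrient uptake and redox enzymes. Of 10 nitrogen assimilation genes, 3 were lower, where 6.22% of all genes compared were, and none was higher. The median log2 ratio was -0.76. The gene am, which encodes the NADP-dependent glutamate dehydrogenase, was at 425 and 153 CPM (ratio 0.359, 0.343 to 0.376), the nitrate transporter gene nit-10 at 236 and 101 CPM, and the nitrate reductase gene nit-3 at 42.3 and 20.8 CPM, a ratio of 0.492 that no other scaling kept under 0.5. The glutamine synthetase genes gln-1 and gln-2 were at ratios of 0.525 and 0.532. The regulators nit-2 and nit-4 had log2 ratios of -0.12 and 0.13. Of 5 copper and zinc transporter genes, the copper transporter genes tcu-1 and tcu-2 were lower (40%, against 6.22% of all genes compared), with log2 ratios of -1.41 and -1.38. The gene tcu-3 stayed within 2-fold at -0.88, and the zinc transporter genes tzn-1 and tzn-2 had log2 ratios of 0.24 and 0.20. The NADPH oxidase genes nox-1 and nox-2 and their regulator gene nor-1 were lower, with log2 ratios of -1.27, -1.15 and -1.41. With sod-2, they are the 4 lower genes of the 9 in the oxidative stress list (44.4%, against 6.22% of all genes compared). In the same list cat-4 was higher, and sod-1 had a log2 ratio of 0.35. The call of nox-2 was lost under 3 of the 5 other scalings.

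Cell wall and chromatin genes contained members on both sides. Of 17 genes for cell wall proteins, ncw-6 and ncw-4 were higher (log2 ratios 1.43 and 1.34) and acw-4, acw-12, ncw-1 and acw-8 were lower (-1.75, -1.25, -1.07 and -1.04). These are 11.8% and 23.5% of the list, against 5.22% and 6.22% of all genes compared. The calls of ncw-1 and acw-8 were lost under 4 and 5 of the 5 other scalings. Of 59 glycoside hydrolase genes compared, 6 were higher and 3 lower (10.2% and 5.08%, against 5.22% and 6.22% of all genes). Only 2 of the higher genes, gh28-2 and gh47-3, had an interval beyond 2-fold, as had all 3 lower genes, gh3-5, gh47-4 and gh18-9. Of 30 chromatin modifier genes, nst-5, of the sirtuin family, was higher, with 67.0 and 271 CPM, and 6 were lower (20%, against 6.22% of all genes). These were the DNA methyltransferase gene dim-2, the sirtuin genes nst-6 and nst-7, and the SET domain genes set-5, set-6 and set-7. The lowest ratio was 0.443, for set-6, none had an interval beyond 2-fold, and each call was lost under at least 2 other scalings.

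In 11 of the 30 lists, no member passed 2-fold, while 5.22% of all genes compared were higher and 6.22% lower. They hold 159 compared genes with log2 ratios between -0.92 and 0.63, and comprise complex I of the respiratory chain, the citric acid cycle, glycolysis and fermentation, the proteasome, the V-ATPase, the COP9 signalosome, mitochondrial protein import, histones, ribosomal proteins, chitin and glucan synthesis, and glycogen and trehalose metabolism. Medians differed among them, from -0.54 for glycolysis and fermentation to 0.20 for mitochondrial protein import. Heat shock protein genes also stayed within 2-fold, apart from the endoplasmic reticulum chaperone gene grp78 at a ratio of 0.498, which no other scaling kept under 0.5. Among 20 peroxisome genes only pex4 was past 2-fold (log2 ratio 1.53), and among 54 protein kinase genes stk-43 and stk-52 were (ratios 2.13 and 2.11, with intervals that begin below 2). For 13 of the 30 lists, the sign of the median turned from negative to positive with TMM factors, among them clock components, DNA repair, transcription factors, protein kinases and complex I, and each of these medians is to be read against the median of all genes under the same scaling.

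**Figure D3:**
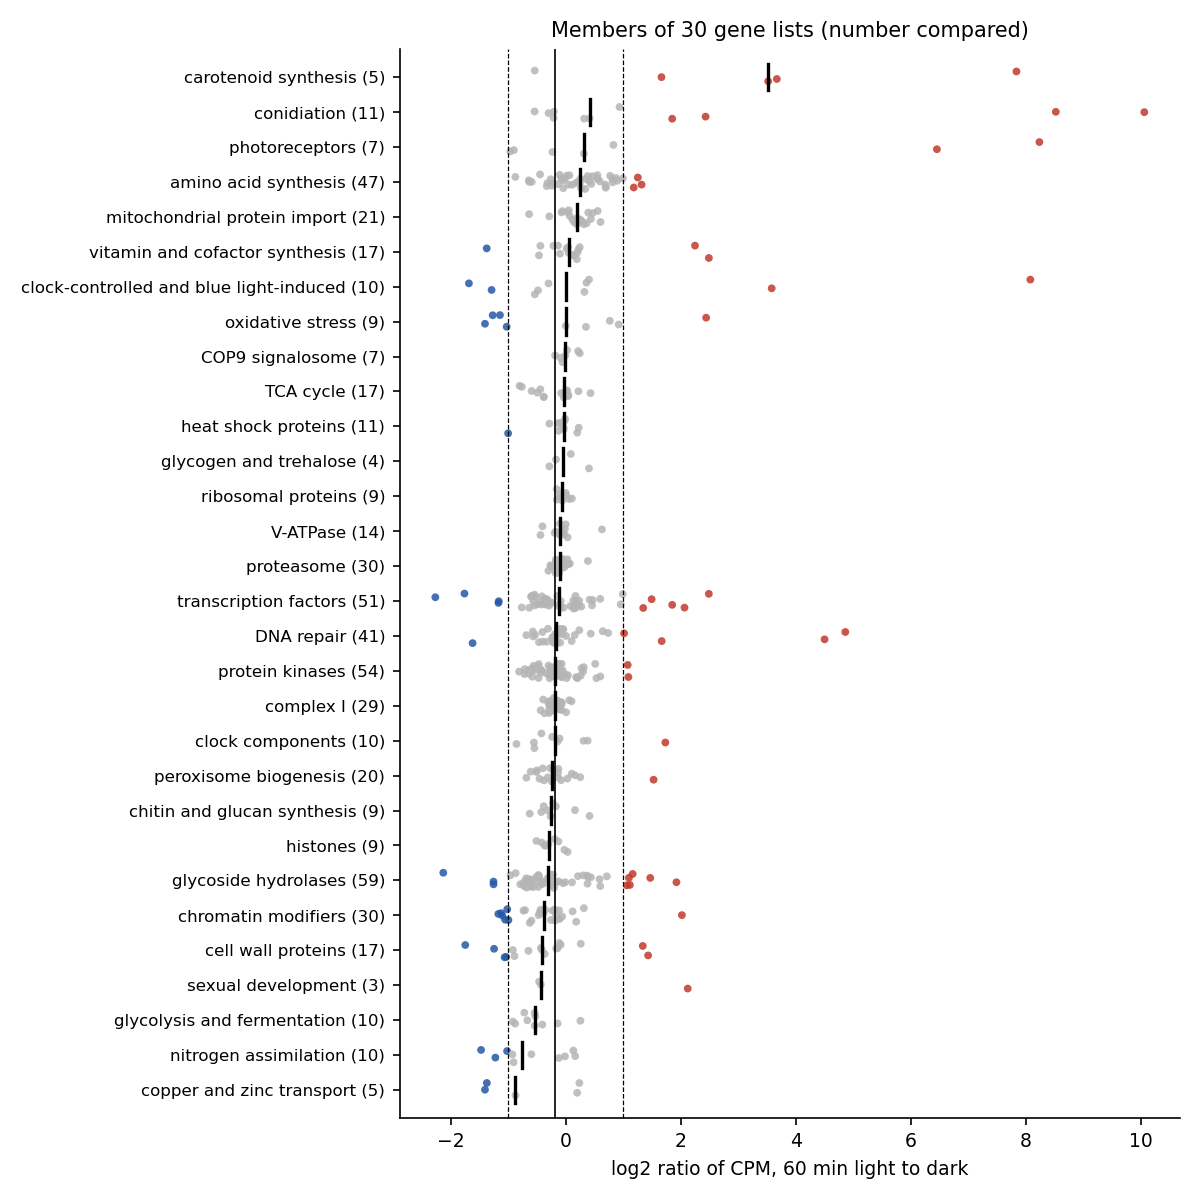
Each point is 1 compared member of 1 of the 30 gene lists, placed on the x axis by its log2 ratio of CPM at 60 min to the dark and colored red when higher, blue when lower and gray when within 2-fold. Short black bars are list medians, the solid line is the median of all genes compared (-0.18) and dashed lines mark 2-fold. Carotenoid synthesis has the highest median, 3.52, and copper and zinc transport the lowest, -0.88.

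The genes with the most reads, NCU06110 and the thiamine-regulated gene nmt-1, were the same in both libraries and stayed within 2-fold (ratios 0.860 and 0.822). Behind them came ccg-14, ccg-13 and ccg-16 in the dark and bli-3, con-10 and con-6 at 60 min. Among the genes that the study singles out, NCU02608 was higher, at 14.2 and 35.8 CPM, and myo2 and gh76-2 had log2 ratios of -0.70 and -0.69. NCU05980 and NCU04233 had at most 3 reads in each library and were not compared.

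The values at 30 and 120 min place the 60 min library within the time course, but they share the dark library with it, and only the levels are given. At 30 min al-1 was at 10832 CPM, above its 6521 CPM at 60 min and 2546 CPM at 120 min. The genes al-2, al-3, cao-2, vvd, cry, bli-4 and phr were likewise highest at 30 min. In contrast, con-6, con-10, NCU08770, bli-3, mus-18 and pdx-1 were highest at 60 min, and con-8 was at 2652, 2981 and 3823 CPM at 30, 60 and 120 min. Of the 15 higher genes with the largest ratios, 10 had a higher CPM at 30 min than at 60 min and 0 had a higher CPM at 120 min. On the lower side, 4 of the 15 genes were lower at 30 min than at 60 min and 1, NCU08223, was lower at 120 min, with 41.4, 21.3 and 13.5 CPM at 30, 60 and 120 min. The gene am was lowest at 30 min (94.3 CPM) and at 266 CPM at 120 min.

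**Figure D4:**
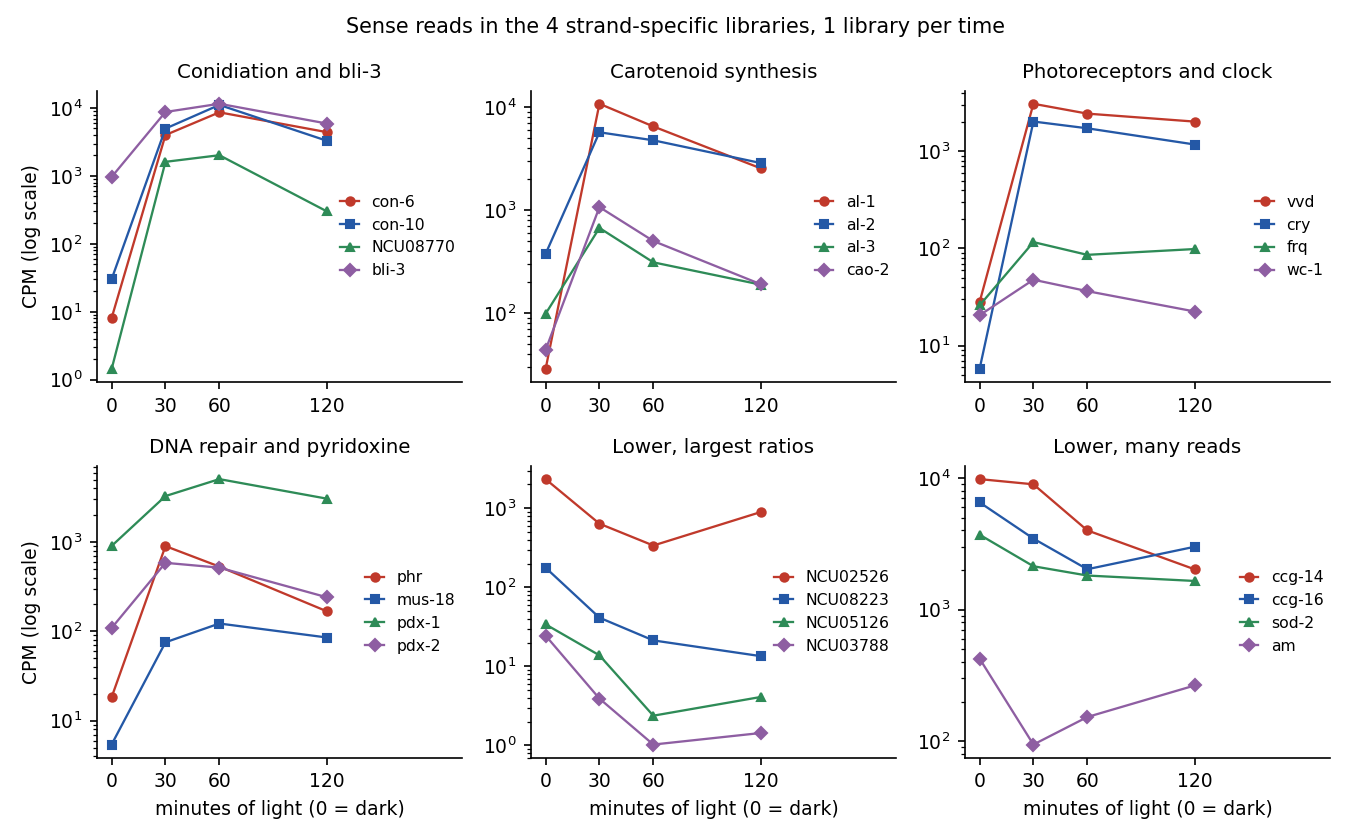
CPM on a log scale of 24 genes in the 4 strand-specific libraries, against minutes of light, with 0 for the dark and 1 library at each time. The genes al-1, vvd, cry and phr are highest at 30 min, con-6, con-10 and bli-3 at 60 min, and NCU02526, NCU05126 and NCU03788 are lowest at 60 min.

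The same genes were also compared between wt, Δwc1 and Δwc2 in the constant light libraries, which did not enter the choice of genes. The constant light counts are given per exon without a split by strand, whereas the genes were chosen on sense reads. For example, NCU04233 had 0 sense reads in the dark and at 60 min, beside 68 and 86 antisense reads. In wt in constant light it had 94 reads. How far antisense reads enter the constant light values, such as those of frq, was not tested. No library of Δwc1 or Δwc2 was made in darkness or after a move from darkness to light. Whether the response to light depends on the White Collar Complex was therefore not tested. The targeted genes were looked at first. In the library labelled Δwc2, wc-2 had 141 reads against 605 in wt, a ratio of 0.275, with 3 reads on an exon that had 303 in wt. In the library labelled Δwc1, wc-1 had 1290 reads against 332 in wt, of which 3 fell on the exon with 88 reads in wt and 1287 on the other. The wc-1 counts therefore go with the label for 1 exon and against it for the whole gene, and directions from this library rest on its label.

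Of the genes higher at 60 min, 357 had at least 50 reads in wt in constant light. In the library labelled Δwc1, 141 of them (39.5%) were more than 2-fold below wt, against 6.58% of all 7252 genes compared, and in the library labelled Δwc2, 124 (34.7%) were, against 6.34%. Both libraries were lower for 106 genes (29.7%), against 4.44%. The share grew with the size of the ratio at 60 min. Of the 237 genes with ratios of 2 to 4, 68 and 56 were lower in the libraries labelled Δwc1 and Δwc2 (28.7% and 23.6%). Of the 93 genes with ratios of 4 to 16, 53 and 47 were lower, and of the 27 genes over 16-fold, 20 and 21 were (74.1% and 77.8%). The libraries labelled Δwc1 and Δwc2 share the wt library, so that their values are not independent of each other. The read minimum was set on wt alone, also for all genes compared. Genes low in wt but well read in the other libraries are thus left out of the shares.

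Single genes showed how far this went. In wt in constant light vvd was at 484 CPM, and it was at 17.1 and 6.12 CPM in the libraries labelled Δwc1 and Δwc2, ratios of 0.0354 and 0.0127. The gene cry was at 115, 5.17 and 3.83 CPM, bli-4 at 190, 4.63 and 6.26 CPM, and con-10 at 54.7, 2.99 and 4.59 CPM. The conidiation gene con-8 was at 1627, 13.6 and 20.4 CPM, and frq at 62.3, 17.0 and 13.3 CPM. Such low values were not limited to the higher genes, since eas, within 2-fold at 60 min, was at 6097, 90.7 and 173 CPM. Of the 6467 genes within 2-fold, 4.56% and 4.52% were more than 2-fold lower in the libraries labelled Δwc1 and Δwc2, and 12.4% and 8.55% higher. Other genes that were higher at 60 min were not more than 2-fold lower in these libraries. The gene pdx-1 was at 2481, 4567 and 4545 CPM, sub-1 at 4.88, 14.2 and 12.0 CPM, al-3 at 15.4, 18.6 and 13.3 CPM, and cao-2 at 28.7, 23.1 and 17.4 CPM. In the dark library sub-1, al-3 and cao-2 were at 44.9, 98.3 and 43.8 CPM, above their wt levels in constant light. The dark level of pdx-1 was below its wt level. Whether the rise of these genes at 60 min depends on the White Collar Complex was not tested. The levels in wt also differed from those at 60 min, since con-6 was at 6.41 CPM in constant light and 8634 CPM at 60 min. Levels in constant light and in the strand-specific libraries, the dark one included, are only roughly comparable, because they were counted differently. Their reads were also spread differently. The gene nmt-1 alone was at 154447 CPM in wt in constant light and at 26632 CPM in the dark.

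Of the genes lower at 60 min, 428 could be followed in constant light. In the library labelled Δwc1, 120 were more than 2-fold above wt, against 13.3% of all genes compared, and in the library labelled Δwc2, 93 (21.7%), against 9.17%. Both were higher for 76 genes (17.8%), against 6.21%. Among these genes, NCU09497 was at 7.55, 79.7 and 73.2 CPM in wt and in the libraries labelled Δwc1 and Δwc2. The gene NCU05126 was at 39 reads (1.49 CPM) in wt, under the wt read minimum, and is therefore in none of these counts. It had 3496 and 2768 reads in the libraries labelled Δwc1 and Δwc2, ratios of 105 and 83.7. The opposite was seen for NCU02526, at 1054, 209 and 275 CPM, and sod-2, at 431, 70.3 and 59.3 CPM, which were lower at 60 min as well as in both libraries. Of the lower genes, 31 (7.24%) were lower in both, against 4.44% of all genes compared. Among the 41 genes more than 4-fold lower at 60 min, 14 were higher and 7 lower in the library labelled Δwc1. In the library labelled Δwc2, 10 were higher and 9 lower, and in both, 9 were higher and 6 lower.

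**Figure D5:**
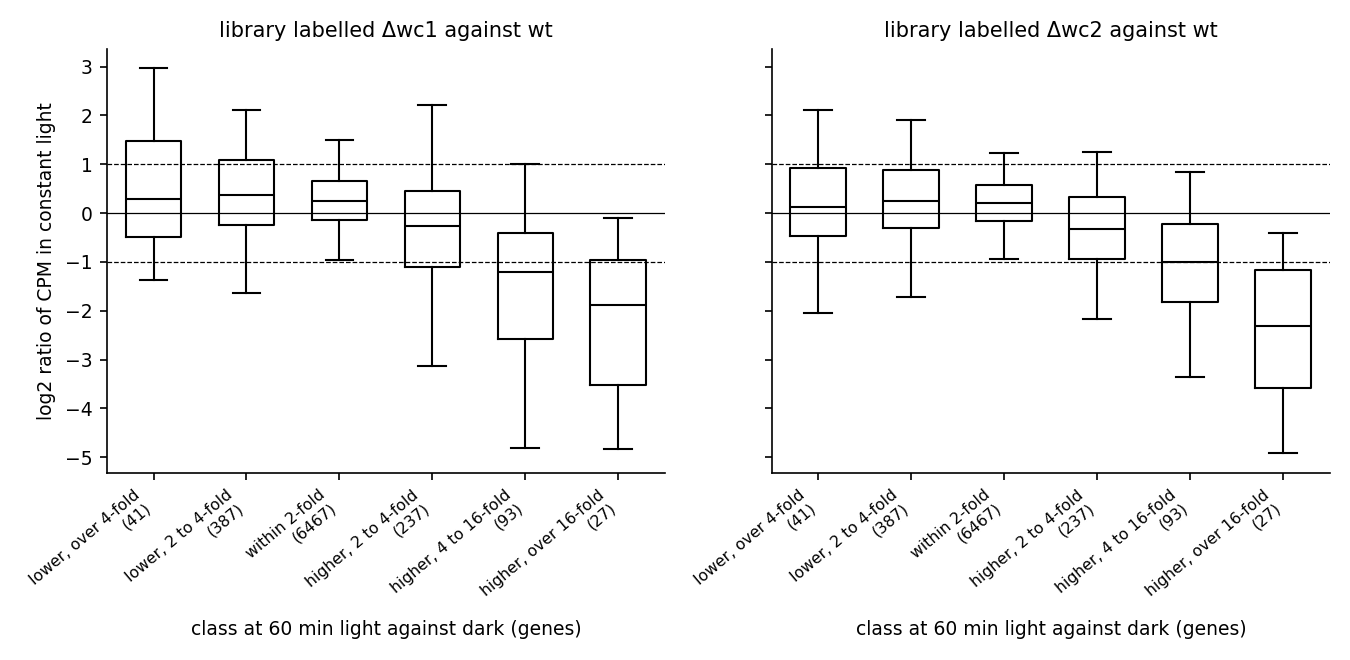
Log2 ratio of CPM in the libraries labelled Δwc1 (left) and Δwc2 (right) to wt in constant light, for genes grouped by their ratio at 60 min to the dark, with the number of genes in brackets. Boxes span the quartiles with the median as a line, whiskers reach the 5th and 95th percentiles, and dashed lines mark 2-fold. The medians of the genes more than 16-fold higher at 60 min are -1.88 and -2.31, and those of genes within 2-fold are 0.24 and 0.21.

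The position of the genes was compared through the order of genes in the RefSeq annotation. Of the 388 higher genes with a place in this order, 112 (28.9%) lay next to another higher gene, while 7.88% of all 7502 genes compared lay next to a higher gene. Of the 463 lower genes, 117 (25.3%) lay next to another lower gene, against 9.22% of all genes. There were 7 runs of at least 3 adjacent higher genes and 8 of lower genes. The longest were 2 runs of 6 higher genes. One, NCU01056 to NCU01061, includes gh47-3 and NCU01060, the latter at 97.3 and 1163 CPM. The other, NCU05148 to NCU05142, includes NCU05143, at 21.4 and 1702 CPM. Neither run holds by the interval throughout. In the first, the interval of NCU01058 (9 and 53 reads) was 1.32 to 6.22. In the other, the intervals of NCU05145, NCU05146 and NCU05147 began at 1.69, 1.84 and 1.94. A shorter run joined ncw-6, al-2 and NCU00584, with ratios of 2.70, 12.7 and 5.94. On the lower side, cel-1 and cel-2, the fatty acid synthase genes, lay together at ratios of 0.304 and 0.302. NCU01212 and sod-2 were adjacent, and so were NCU05498, NCU12104 and ccg-16. The shares and runs rest on the calls with the gene sums and were not repeated with other scalings. Of the genes in these runs, sod-2 and NCU05498 lost their calls under 5 and 3 of the 5 other scalings.

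The higher genes were shorter, with a median length of 1877 bp against 2549.5 bp for the lower genes and 2393 bp for all genes compared with a length. In the class of the shortest genes 9.69% were higher and 4.78% lower, and in that of the longest 1.99% were higher and 6.45% lower. Relative to the median of their own length class, 471 genes were higher and 312 lower, an alternative chosen after the data had been seen.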

How the data were processed

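Polyadenylated RNA of 4 strand-specific libraries (NEBNext Ultra Directional kit) was sequenced by the authors, mapped to NC10 with Bowtie (the submitters' processing notes list Bowtie2 2.1.0, TopHat2 2.0.13 and HTSeq) and deposited as raw counts per gene and strand. Counts of the 3 libraries from constant light were deposited per exon, without a split by strand, and summed here over each gene. How these were mapped is not given in the sources used here. The 5 HTSeq lines that name no gene (12.1% to 21.3% of the reads) were left out. CPM were counts divided by the sum of the gene counts. Ratios have exact (Clopper-Pearson) 95% intervals, given the sum of both counts, with no pseudocount. Genes in constant light needed 50 wt reads. The comparison and the gene lists were chosen with earlier results of these data known. The 30 lists were matched by RefSeq symbol (NC12), which 1065 of the compared genes carry. NC12 also gave gene lengths and order. Named were, in each direction, the 15 largest ratios (100 reads or more in the higher library, interval beyond 2-fold), the 10 largest CPM differences, list members past 2-fold and up to 4 others for each list, the 5 genes with the most reads, and genes named by the study, except NCU06661, which was not analysed here. Some further members of short lists, NCU08533 and genes in runs of neighbors were chosen after their values were seen. Alternatives were 5 other scalings, the read minimum, the fold, a pseudocount of 1 CPM and the length adjustment. Promoter motifs and the lincRNA list were not used here. Python 3.11.15 (numpy 2.4.6, pandas 2.3.3, scipy 1.17.1, matplotlib 3.10.9), R 4.3.3 and edgeR 4.0.16 (TMM factors only) were used.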

Additional observations from a re-analysis of the deposited data

How the results depend on the processing

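No paired analysis was possible because each condition has 1 library, and for the same reason no replicate could be left out. With median-of-ratios and TMM factors, 318 and 314 genes were lower instead of 486, and 186 and 182 instead of 298 had an interval beyond 2-fold. Relative to the length class (chosen after seeing the data), 312 were lower. The number of higher genes stayed between 408 and 514 in these settings. The median log2 ratio moved from -0.18 to -0.0664 with the total reads stated by the study, to -0.0246 with all lines of the files, to 0.00482 with median-of-ratios factors and to 0.0115 with TMM factors. With a minimum of 1 read, 762 genes were higher and 834 lower. With a fold of 1.5, 728 were higher and 1431 lower (489 and 773 by the interval), and with a fold of 4, 146 and 51 (102 and 26). Of 1344 ratios of named genes under the alternatives, 686 stayed within their 95% interval and 658 moved. No named gene past 2-fold turned to the other direction, whereas 22 of 120 named genes within 2-fold changed the sign of their log2 ratio under at least 1 scaling. Of 810 list counts and medians, 647 stayed close and 163 moved. The shares of genes lower or higher in the libraries labelled Δwc1 and Δwc2 kept within 1.5 times of their values. At 0.306 CPM for 3 reads, the dark library limits genes of low level, and 32 higher genes rest on fewer than 50 reads.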

Other observations

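Antisense reads of the higher genes were also counted. The higher genes together had antisense reads amounting to 3.60% (dark) and 0.998% (60 min) of their reads on both strands. The following counts are raw reads, not scaled to the larger depth of the 60 min library. From dark to 60 min the antisense count went from 3 to 276 for con-10, from 3 to 290 for al-1, from 5 to 324 for vvd and from 20 to 671 for con-8. At frq, where sense reads were 254 and 1842, antisense reads were 149 and 1668. More antisense than sense reads at 60 min were found for 20 higher genes, 15 lower genes and 198 of all genes compared. How far reads from the sense strand enter the antisense counts was not tested.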
